A study of Mus musculus with 18 samples.

Results

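Squamous cell carcinomas of ultraviolet-irradiated mouse skin were compared with the papillomas of the same animals. The 12 lesion libraries, 6 carcinomas (SCC) and 6 papillomas (PAP), were taken from 18 in all by the lesion named in each sample title, and were matched by mouse (mice 2, 3, 7, 8, 9 and 10). All 14521 genes with a symbol, of 14542 entries, were tested. The animals were female SKH-1E Hairless mice, an outbred, immunocompetent stock that grows tumours under repeated low-dose simulated sunlight, and every animal was irradiated, the source of the reference skin included. That reference, non-lesional chronically irradiated skin (CHR, n = 6), was whole skin, and here it serves as a reference level and shares in the estimate of spread. Each lesion was a piece of tissue with whatever epidermis, stroma and underlying layers it held, and each mouse gave 1 lesion of each kind. The paper reports histological checks and estimates that tumour cells made up most of each papilloma and carcinoma. In such bulk samples fewer cells of a type and less RNA per cell cannot be told apart.

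A papilloma is an outgrowth of thickened epidermis that stays above the basement membrane, whereas a squamous carcinoma grows down into the dermis. Beneath the dermis and fat of mouse skin lies the panniculus carnosus, a sheet of striated muscle that human skin largely lacks, so a sample that reaches deep holds muscle RNA. Keratinocytes carry keratins and desmosomes, fibroblasts make collagen, and macrophages carry complement C1q and lysozyme. Short oxygen supply stabilises hypoxia-inducible factor, which switches on genes for glucose uptake, acid handling and the growth of vessels.

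Each lesion library held between 15415013 and 21004606 reads. No library was a copy of another, since the highest share of identical values among 66 pairs was 2.24%. Keratinocyte genes were abundant in all 12 lesions, with Krt14, the basal keratin, at 67641 to 467662 normalised reads, so the labelled epidermal origin was met. The carcinoma of mouse 10 stood apart, since it held almost no muscle and little collagen. The papilloma of mouse 2 held more muscle than the other 5 papillomas, and list counts and leading genes are therefore also given without each.

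Skeletal muscle, fibroblast and macrophage genes were higher in SCC, and a small group that included the angiogenic factors Pgf and Vegfa was lower. In limma with the mouse as a block, 440 genes (3.03% of those tested) had a higher value in SCC at an adjusted p under 0.05 and are termed risen. Only 34 (0.234%) were lower and are termed fallen. The difference had the same sign in 6 of 6 mice for 350 of the risen and 30 of the fallen genes, with median log2 differences of 1.17 and -0.69, against -0.02 over all genes. The genes were called on these same mice, so the agreement in sign is partly built in. The share of all genes with the same sign in 6 of 6 mice is not given here. At the looser cutoff used in the study, an adjusted p under 0.25 with a small minimum fold, 2117 genes (14.6%) were higher and 526 (3.62%) lower. The calls at 0.05 needed the CHR libraries in the fit, which add residual degrees of freedom and have a smaller spread, and these were not tested apart. In the 12 lesion libraries alone limma called 0 genes, with 2851 at an unadjusted p under 0.05, and the 474 genes then had a median adjusted p of 0.051 and a highest of 0.11. In limma 0 genes were called without mouse 3, 7 or 8, where 2310, 1924 and 1930 genes had an unadjusted p under 0.05, and 1 was called without mouse 9. Without mouse 10, 1160 were called, 447 of them among the 474. Of 453 genes on the lists described here 59 were called, with 112 called without mouse 10, 38 without mouse 2 and 0 when 1 of the other 4 mice was left out.

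**Figure D1:**
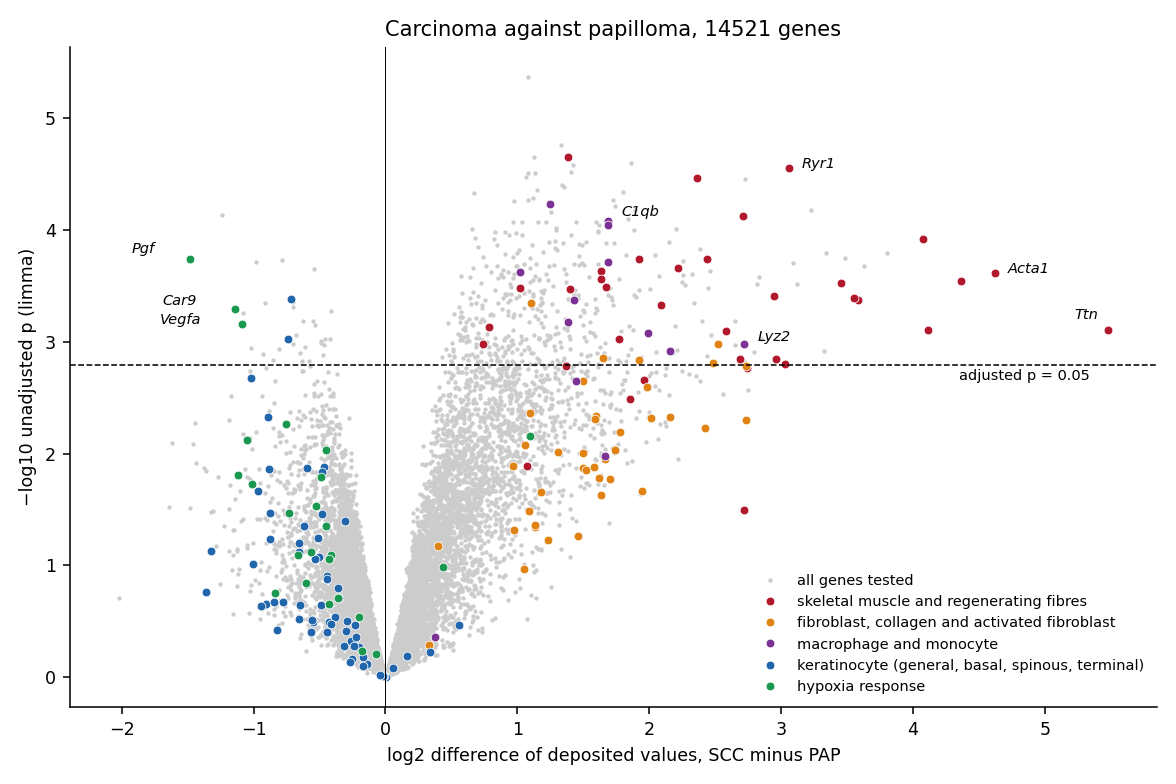
Difference between SCC and PAP for 14521 genes: log2 difference of the deposited values (x axis) against −log10 of the unadjusted p in limma (y axis), with genes of 5 kinds coloured and the dashed line at an adjusted p of 0.05. Muscle genes reach a difference of 5.48 and 440 genes lie above the line on the right, against 34 on the left.

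Striated muscle genes gave the largest differences. Of 28 skeletal muscle genes measured, 23 rose and 0 fell, and the median log2 difference was 2.72. The deposited scale compresses low values, and with limma-voom on recovered reads the median was 4.48. In limma 19 of them rose without mouse 2 (median 2.95) and 27 without mouse 10 (median 3.3). Acta1 encodes the actin of skeletal muscle fibres and lies on chr8:123891769-123894751 (GRCm38, minus strand). It had 4.1 normalised reads in the lowest papilloma, a median of 26.2 and a highest of 1848, against 26.4, 6347 and 11227 in SCC. Every papilloma was exceeded by 5 of the carcinomas, while that of mouse 10 was within the papilloma range. The log2 difference was 4.62 ± 0.93 (SE, n = 6 mice), with an adjusted p of 0.029 in limma, and was 5.03 without mouse 2 and 5.41 without mouse 10. The bases just upstream of the Acta1 start, from RefSeq on GRCm38.p6 (chr8:123894776-123894905, minus strand), are shown because the gene stands for the group. The capitals mark a CArG box, the binding motif of serum response factor, searched on both strands.

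Acta1: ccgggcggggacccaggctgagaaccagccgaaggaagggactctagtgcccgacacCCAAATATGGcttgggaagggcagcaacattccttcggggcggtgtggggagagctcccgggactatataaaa

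A CArG box was present within 250 bases upstream of 3 of 22 muscle genes matched (13.6%) and of 1.62% of 27025 genes in the RefSeq table. Ryr1, the calcium release channel of the muscle fibre, had 6.15, 82.9 and 318 normalised reads as the lowest, median and highest in PAP and 103, 1742 and 2632 in SCC. Its log2 difference was 3.06 ± 0.49 (adjusted p = 0.029 in limma), and again only the carcinoma of mouse 10 fell within the range of PAP. The genes with the largest rise in 6 of 6 mice included Ttn and Neb, giant proteins of the sarcomere, Acta1, Tnnt3, Nrap, Cmya5, Ryr1 and Flnc, which build or attach the contractile apparatus, the muscle carbonic anhydrase Car3, the stress-responsive Ankrd1, and the matrix protein Cilp. Their log2 differences ran from 2.85 for Flnc to 5.48 for Ttn. Reads of the near-identical myosin heavy chain genes may have been divided among them in counting.

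Genes of forming or regenerating fibres were also higher in SCC. Of 7 measured, 6 rose, and the neonatal myosin Myh8 was among them. In limma 2 of the 7 rose without mouse 2 and 6 without mouse 10. Myh3, the embryonic myosin heavy chain, had at most 1.64 normalised reads in any papilloma. In SCC it had 507, 158, 738, 84.8 and 214 in mice 2, 3, 7, 8 and 9 and 0 in mouse 10. Myog, a transcription factor that drives myoblasts to differentiate, had 0 reads in 6 of 6 papillomas and a mean of 85.1 normalised reads in SCC, at least 28.9-fold higher when 3 reads per library are taken as the floor. Tmem8c, the fusion protein myomaker, was at 0 in every PAP and CHR library and had a mean of 16.8 in SCC, at least 5.69-fold above PAP. Both were at 0 in the carcinoma of mouse 10. Set against whole irradiated skin, these genes went both ways. In SCC vs CHR, where limma called 17.8% of genes higher and 24.2% lower, 27 of the 28 skeletal muscle genes were lower in SCC and 0 higher. Relative to CHR, Myh3 was raised in SCC by 1.18 ± 0.39 on the log2 scale (adjusted p = 0.0291 in limma, 5 of 6 mice). Myog (0.79 ± 0.28) and Tmem8c were higher too, as was Ankrd1 (1.37 ± 0.47, adjusted p = 0.0318 in limma). Myh8, Myf6 and Musk of the same list were lower in SCC, with Myh8 at -1.63 and the list's share of reads at a median of 0.00295% in SCC and 0.0052% in CHR. The difference between the gene groups was not tested.

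**Figure D2:**
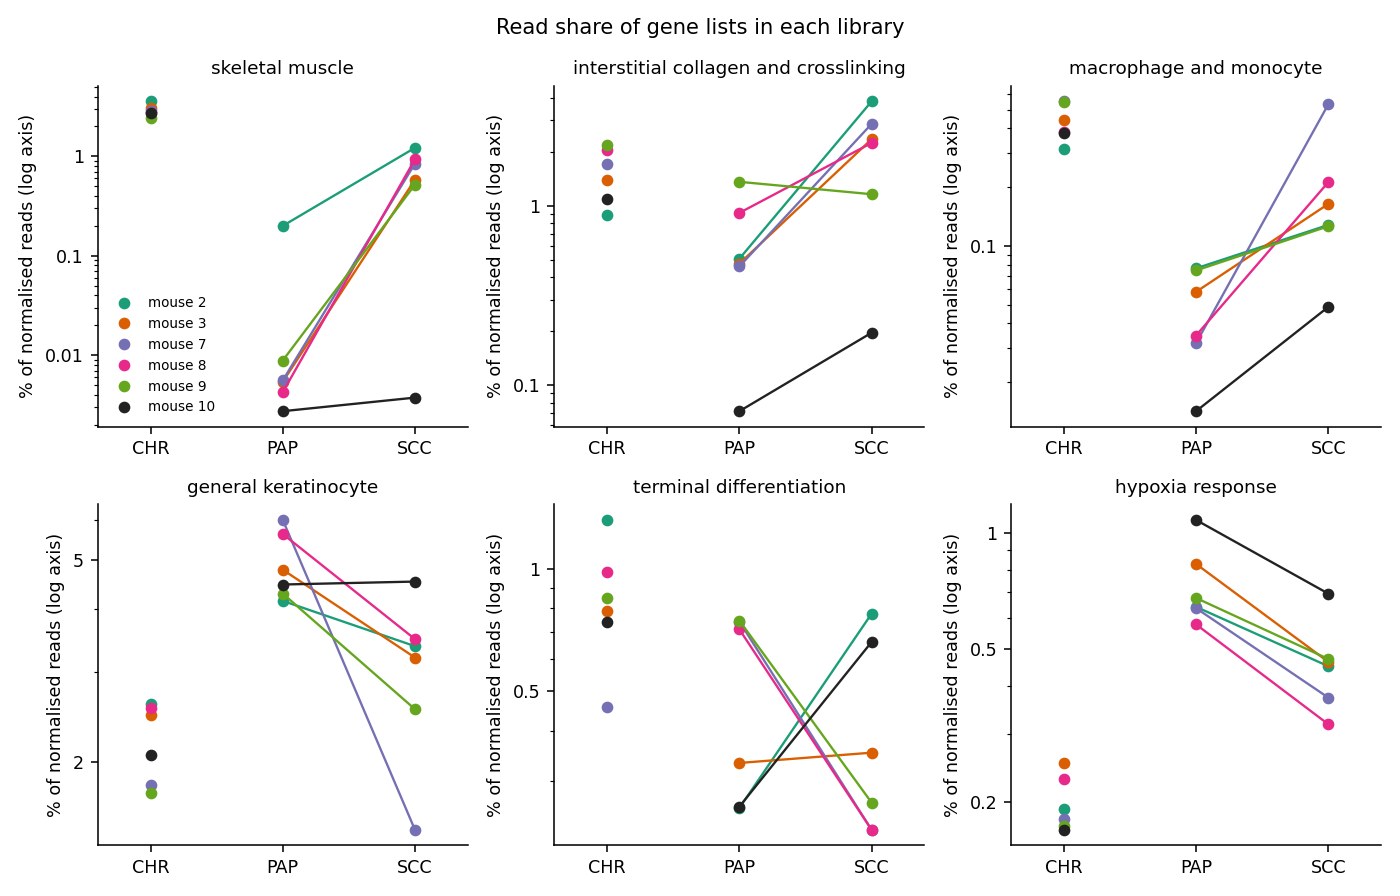
Share of all normalised reads (y axis, percent, log scale) taken by 6 gene lists in each library of CHR, PAP and SCC, with 1 colour per mouse and lines joining the lesions of a mouse. The muscle share rises in 5 mice and stays at 0.00374% in the carcinoma of mouse 10, and the hypoxia share is lower in SCC in 6 of 6 mice.

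The muscle list took 0.00273% of normalised reads in the lowest papilloma, a median of 0.00549% and a highest of 0.2%, the last in mouse 2. In SCC the share ran from 0.00374% in mouse 10 to 1.22% in mouse 2, with a median of 0.715%, and in CHR from 2.46% to 3.58%. The plot of read shares shows that 5 carcinomas lay between papilloma and whole skin. Without mouse 2, limma called 255 genes higher and 37 lower.

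Fibroblast and matrix genes were higher in SCC as well. Of 14 dermal fibroblast genes 3 rose (Pdgfra, Twist2 and Pi16), and 12 were past the looser cutoff. In limma 1 of the 14 rose without mouse 2 and 7 without mouse 10. Set against whole irradiated skin, 6 of the 14 were lower in SCC and 0 higher in limma, where 24.2% of all genes were lower. The median log2 difference from CHR was -1.04. Pdgfra, a growth factor receptor of fibroblasts (chr5:75152292-75198215), had 50.1, 432 and 1564 normalised reads as the lowest, median and highest in PAP and 253, 4020 and 7178 in SCC. It was higher in SCC in every mouse, by 2.53 ± 0.6 on the log2 scale (adjusted p = 0.0431 in limma). The ranges overlapped only through the carcinoma of mouse 10. Without mouse 2 the difference was 2.78 and no longer passed, and without mouse 10 it was 2.73. Twist2, a transcription factor of dermal fibroblasts, rose by 1.1 ± 0.24.

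None of 13 genes for interstitial collagen and its crosslinking passed 0.05 in limma, but 13 of 13 had a positive difference (median 1.70) and 12 were past the looser cutoff. Without mouse 10, 9 of the 13 rose in limma, and without mouse 2 none did. Lox, which crosslinks collagen, missed narrowly at 2.74 ± 0.69 (adjusted p = 0.0502 in limma). Sparc, a collagen-binding protein, was at 1.5 ± 0.4 and the fibril collagen Col5a2 at 1.98 ± 0.53. Col5a2 was higher in 5 mice, and in mouse 9 it was at 21035 normalised reads in PAP and 18639 in SCC. The collagen share followed the same order, at 0.0716% to 1.36% (median 0.492%) in PAP and 0.196% to 3.82% (median 2.29%) in SCC. In mouse 9 alone it was higher in PAP.

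Among genes of activated fibroblasts and myofibroblasts, 2 of 12 rose, against 0 without mouse 2 and 4 without mouse 10. They were Wisp1, a secreted matricellular protein (1.65 ± 0.41), and Tagln, an actin-binding protein of contractile cells (1.93 ± 0.48). Unlike the muscle share, the share of this list in SCC (median 1.15%, range 0.219% to 1.49%) lay above that of whole irradiated skin (median 0.324%, range 0.163% to 0.531%) in every mouse. For the same list the share in PAP had a median of 0.441% and a range of 0.128% to 0.809%. In mouse 9 it was higher in PAP (0.809%) than in SCC (0.585%). In SCC vs CHR, 6 of its 12 genes were higher and 1 lower in limma, with Col12a1, a collagen of stressed matrix, at 1.78 ± 0.27 (adjusted p = 0.000253). Grem1, a secreted antagonist of bone morphogenetic proteins, was the risen gene with a similar order. It had 428 to 1128 normalised reads in CHR, 115 to 2395 in PAP and 621 to 4457 in SCC, and the difference from PAP was 2.0 ± 0.42 (adjusted p = 0.0308 in limma).

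Among the largest rises outside the muscle genes, 7 described here correlated at r of 0.88 to 0.94 with the fibroblast score, the mean log2 value of the dermal fibroblast genes in a lesion, over 12 libraries with the means of PAP and SCC removed. They were the heparan sulphate editing enzyme Sulf1, the complement regulator Serping1, and Cpxm1, Spon1, Loxl3, Pdgfra and Tagln, with log2 differences of 1.93 to 2.53. Blood endothelial genes differed less, with a median log2 difference of 0.45. Still, 13 of 13 were above 0 and 8 were past the looser cutoff, against 14.6% of all genes. Of 11 pericyte and smooth muscle genes 8 were past it, with a median of 0.96. Pecam1, an adhesion molecule of endothelium, was the 1 of 13 blood endothelial genes that rose (0.87 ± 0.18, adjusted p = 0.029 in limma), and Mcam, found on pericytes and endothelium, rose by 0.73 ± 0.16. Pecam1 had 748 to 1518 normalised reads in PAP and 1511 to 2911 in SCC, so that the ranges barely touched. Kdr, the main receptor for vascular endothelial growth factor, differed by 0.13 ± 0.15, with an adjusted p of 0.686 in limma.

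The mesenchymal transcription factors Zeb1 (1.18 ± 0.27), Zeb2 (1.72 ± 0.37) and Prrx1 (1.76 ± 0.44) were the 3 of 12 genes on the list for epithelial-mesenchymal transition that rose. Their deviations within each lesion type correlated with the fibroblast score at r of 0.97, 0.97 and 0.96 over 12 libraries. Zeb2 was also at r = 0.95 with the macrophage score. Whether the epithelial cells carried these transcripts was not tested.

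**Figure D3:**
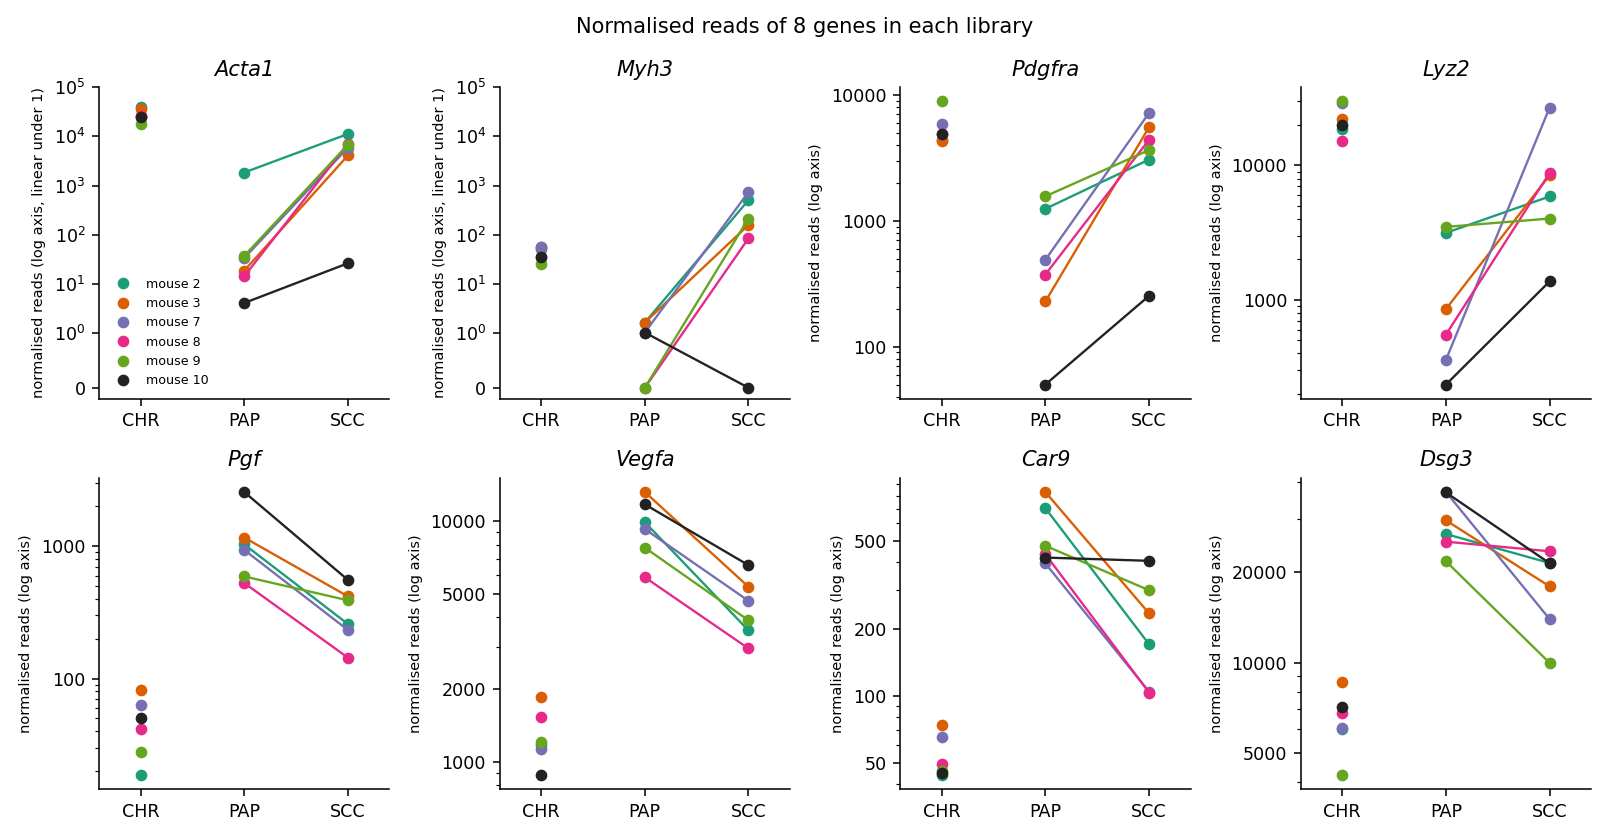
Normalised reads (y axis, log scale, linear under 1 for Acta1 and Myh3) of 8 genes in each library of CHR, PAP and SCC, with 1 colour per mouse and lines joining the lesions of a mouse. Acta1, Pdgfra and Lyz2 are higher and Pgf, Vegfa, Car9 and Dsg3 lower in SCC in 6 of 6 mice, whereas Myh3 is higher in 5.

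Macrophage genes formed the most uniform group of risen genes after muscle. Of 14 measured, 10 rose and 0 fell, with a median log2 difference of 1.56. The count was 7 without mouse 2 and 11 without mouse 10. Set against whole irradiated skin, 11 of the 14 were lower in SCC and 0 higher in limma, where 24.2% of all genes were lower. The median log2 difference from CHR was -1.2. The list took a median of 0.0464% of reads in PAP, 0.146% in SCC and 0.411% in CHR. C1qb, a chain of complement C1q, had 105, 462 and 803 normalised reads as the lowest, median and highest in PAP and 597, 1444 and 3866 in SCC. It was higher in SCC in 6 of 6 mice, by 1.69 ± 0.30 on the log2 scale (adjusted p = 0.029 in limma), and only the carcinoma of mouse 10 lay within the range of PAP. C1qa and C1qc gave 1.68 and 1.69. Lyz2, the lysozyme of macrophages and neutrophils, rose by 2.72 ± 0.65, the mannose receptor Mrc1 by 2.16 ± 0.52, and the pore-forming protein Mpeg1 by 1.99 ± 0.46. Fcgr1, a high-affinity antibody receptor, also rose, in 6 of 6 mice.

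The carcinoma of mouse 7 held the most macrophage RNA, 0.531% of reads against 0.0486% to 0.212% in the other 5. In contrast to muscle, the macrophage list differed in mouse 10 as well, with a median difference of 1.57. Other immune lists had 0 genes that passed 0.05 in limma. At the looser cutoff 7 of 10 dendritic cell genes and 7 of 8 mast cell genes were higher in SCC, against 14.6% of all genes. For T cells 3 of 12 genes and for neutrophils 2 of 8 were past it, which is nearer to that share and is not read as a rise. The mast cell median was lower in SCC in mouse 7 alone (-0.35) and largest in mouse 10 (1.95). The adipocyte list also had 0 genes at 0.05 and 8 of 11 past the looser cutoff, and its median was 0.93 on the deposited scale and 3.17 with limma-voom.

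The genes that fell included a set known as targets of hypoxia-inducible factor. Of 25 hypoxia response genes measured, 3 fell (Pgf, Car9 and Vegfa) and 0 rose, 23 had a negative difference, and 12 were past the looser cutoff in the direction of PAP against 1 in that of SCC. In limma 0 of the 25 fell without mouse 2, where Pgf was at -1.43 and Vegfa at -1.01, and 5 fell without mouse 10. A list of immediate early and heat shock genes, which respond to handling of tissue, moved beside it. None of its 12 genes passed 0.05, 11 had a negative difference (median -0.43), and 5 were past the looser cutoff in the direction of PAP. Its part in the hypoxia result was not tested. Pgf encodes placental growth factor, a ligand that promotes vessel growth, and lies on chr12:85166635-85177790. It showed the largest fall of all genes called. It had 527, 985 and 2567 normalised reads as the lowest, median and highest in PAP and 144, 324 and 556 in SCC. Pgf was lower in SCC in each of 6 mice, by 0.52 to 2.07 on the log2 scale, and the ranges met only where the carcinoma of mouse 10 (556) exceeded the papilloma of mouse 8 (527). The fitted difference was -1.48 ± 0.29, with an adjusted p of 0.029 in limma and of 0.00931 to 0.999 over the alternatives.

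Vegfa, the principal growth factor of blood vessels (chr17:46016993-46032369), had 5850, 9604 and 13244 normalised reads as the lowest, median and highest in PAP and 2957, 4271 and 6569 in SCC. It fell by 1.09 ± 0.25 on the log2 scale (adjusted p = 0.0377 in limma), and the 6 within-mouse differences lay between -1.48 and -0.83. The groups overlapped only through the papilloma of mouse 8 and the carcinoma of mouse 10. Car9, a carbonic anhydrase of the cell surface that exports acid, fell by 1.14 ± 0.25 (adjusted p = 0.0326 in limma), from a median of 456 to 203 normalised reads. The carcinoma of mouse 10 was the exception, at 407 against 421 in its papilloma. All of these remained above whole irradiated skin, where Pgf had 18.6 to 82 normalised reads and Vegfa 878 to 1857. Of other members, Ndrg1 (-1.05 ± 0.33), Egln3 (-1.12 ± 0.40) and Hk2 (-1.01 ± 0.38) did not pass 0.05. Angptl4, which fat cells also make, went the other way at 1.09 ± 0.34 (adjusted p = 0.0869 in limma).

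The upstream sequences of Car9 (chr4:43506896-43507025, plus strand) and of Bnip3 (chr7:138909507-138909636, minus strand), a mitochondrial protein of the same response, are shown because both carry the core motif of hypoxia-inducible factor close to the start. They come from RefSeq on GRCm38.p6, and the capitals mark ACGTG or GCGTG on either strand, where neighbouring matches may overlap.

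Car9: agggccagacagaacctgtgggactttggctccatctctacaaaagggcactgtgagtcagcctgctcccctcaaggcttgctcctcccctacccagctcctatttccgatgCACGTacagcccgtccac
Bnip3: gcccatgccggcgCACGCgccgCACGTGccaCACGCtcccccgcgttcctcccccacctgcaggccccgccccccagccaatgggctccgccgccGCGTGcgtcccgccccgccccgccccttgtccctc

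The single match of Car9 began at position -18 from the start, and Bnip3 had 5 matches in 130 bases. Within 250 bases upstream, 20 of the 21 hypoxia genes matched held the motif (95.2%), against 41.5% of the 27025 genes in the RefSeq table. The list consists of known targets of this factor, so a high share was built in. Of 14 glycolysis genes 12 held the motif too (85.7%). Bnip3 itself was lower in 6 of 6 mice, with a difference of -0.45 ± 0.20 that did not pass (adjusted p = 0.237 in limma).

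The hypoxia list took 0.578% to 1.08% of reads in PAP (median 0.659%), 0.318% to 0.695% in SCC (median 0.456%) and 0.169% to 0.252% in CHR. It was lower in the carcinoma of 6 of 6 mice. In mouse 10 the share went from 1.08%, the highest of PAP, to 0.695%. There the muscle share was 0.00273% and 0.00374% and the general keratinocyte share 4.47% and 4.53%. Other lists differed more in that pair: macrophage at 0.0142% and 0.0486%, collagen at 0.0716% and 0.196%, dermal fibroblast at 0.0141% and 0.0281%. Terminal differentiation was at 0.26% and 0.661%. Their part in the hypoxia difference was not tested. The glycolysis list had a median difference of -0.32. Its genes divided by isoform, since Pfkp, the phosphofructokinase of many epithelia, fell by 0.70 ± 0.17 and Pfkm, the muscle form, rose by 0.99 ± 0.21. Pfkm correlated with the muscle score at r = 0.92 over 12 libraries.

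Among other genes lower in 6 of 6 mice, falls of 0.79 to 1.02 were measured for Vstm5, the adhesion protein Flrt3, the mitochondrial creatine kinase Ckmt1, the niacin receptor Niacr1, the protocadherin Pcdhb19, the ephrin ligand Efna5 and the focal adhesion protein Tns4. Pcdhb19 belongs to a family of close copies, so its counts are uncertain.

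Dsg3, a cadherin of desmosomes in the lower epidermis, had 21751, 28298 and 37009 normalised reads as the lowest, median and highest in PAP and 9977, 19686 and 23491 in SCC (-0.74 ± 0.18, adjusted p = 0.042 in limma). Tfap2a, a transcription factor of the epidermis, fell by 0.72 ± 0.15. Without mouse 2 neither passed, at -0.83 and -0.71, and without mouse 10 Dsg3 missed at -0.73. Ripk4, a kinase needed for keratinocyte differentiation, was named after its values were seen, because its groups did not overlap. It had 4166 to 5822 normalised reads in PAP and 2093 to 3964 in SCC. The share of all genes whose groups did not overlap is not given here, so this separation of a gene picked for it is only a description. Mki67, a marker of cycling cells, was lower in SCC at the margin of the test (-0.57 ± 0.14, adjusted p = 0.05 in limma), and was the 1 of 24 genes for replication and mitosis that fell.

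Genes common to keratinocytes were lower as a block. All 22 general keratinocyte genes measured had a negative difference (median -0.48), and with all mice Tfap2a was the only one called. At the looser cutoff 9 of the 22 were lower, against 3.62% of all genes. In limma 0 of them fell without mouse 2 and 4 fell without mouse 10. Krt14 differed by -0.96 ± 0.37 and Krt5 by -0.88 ± 0.31, without passing (adjusted p = 0.159 and 0.126 in limma). The share of the list was 4.15% to 5.99% in PAP and 1.47% to 4.53% in SCC, with the lowest in mouse 7. When libraries were rescaled so that general keratinocyte genes were level, the median over all genes moved from -0.02 to 0.40, and 166 genes were higher and 0 lower in limma. The general keratinocyte median went from -0.48 to 0.04 and that of the hypoxia list from -0.53 to -0.07, both below the 0.40 of all genes. Rescaling moves the genes of a library together, so the distance to the median of all genes could change little. On that scale Pgf was at -1.01 and Vegfa at -0.57, whereas Dsg3 was at -0.21 and Mki67 at -0.04, and none of them passed.

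Differentiation genes divided the mice. Spinous layer and terminal differentiation lists had 0 genes that passed either threshold. Their medians nevertheless moved widely within mice. In mice 7, 8 and 9 the terminal differentiation median was -2.08, -1.47 and -1.71, in mouse 3 it was 0.08, and in mice 2 and 10 it was positive. The share of reads of these genes went from 0.258% in PAP to 0.776% in SCC of mouse 2 and from 0.26% to 0.661% in mouse 10. Krt1, the keratin of the spinous layer, ran from 9351 to 134763 normalised reads in PAP and from 1777 to 129812 in SCC. Of 12 basal and hemidesmosome genes only Dsg3 fell, and of 4 hyperproliferative keratins none passed, with Krt6a at -0.60 ± 0.40. Krt13, a keratin of internal epithelia, was extreme in 3 carcinomas. It had 36505, 2042 and 5376 normalised reads in SCC of mice 2, 8 and 9 and 6.15 to 251 in the other 3, against 14.3 to 316 in PAP. Its difference of 2.74 ± 1.14 did not pass (adjusted p = 0.201 in limma).

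**Figure D4:**
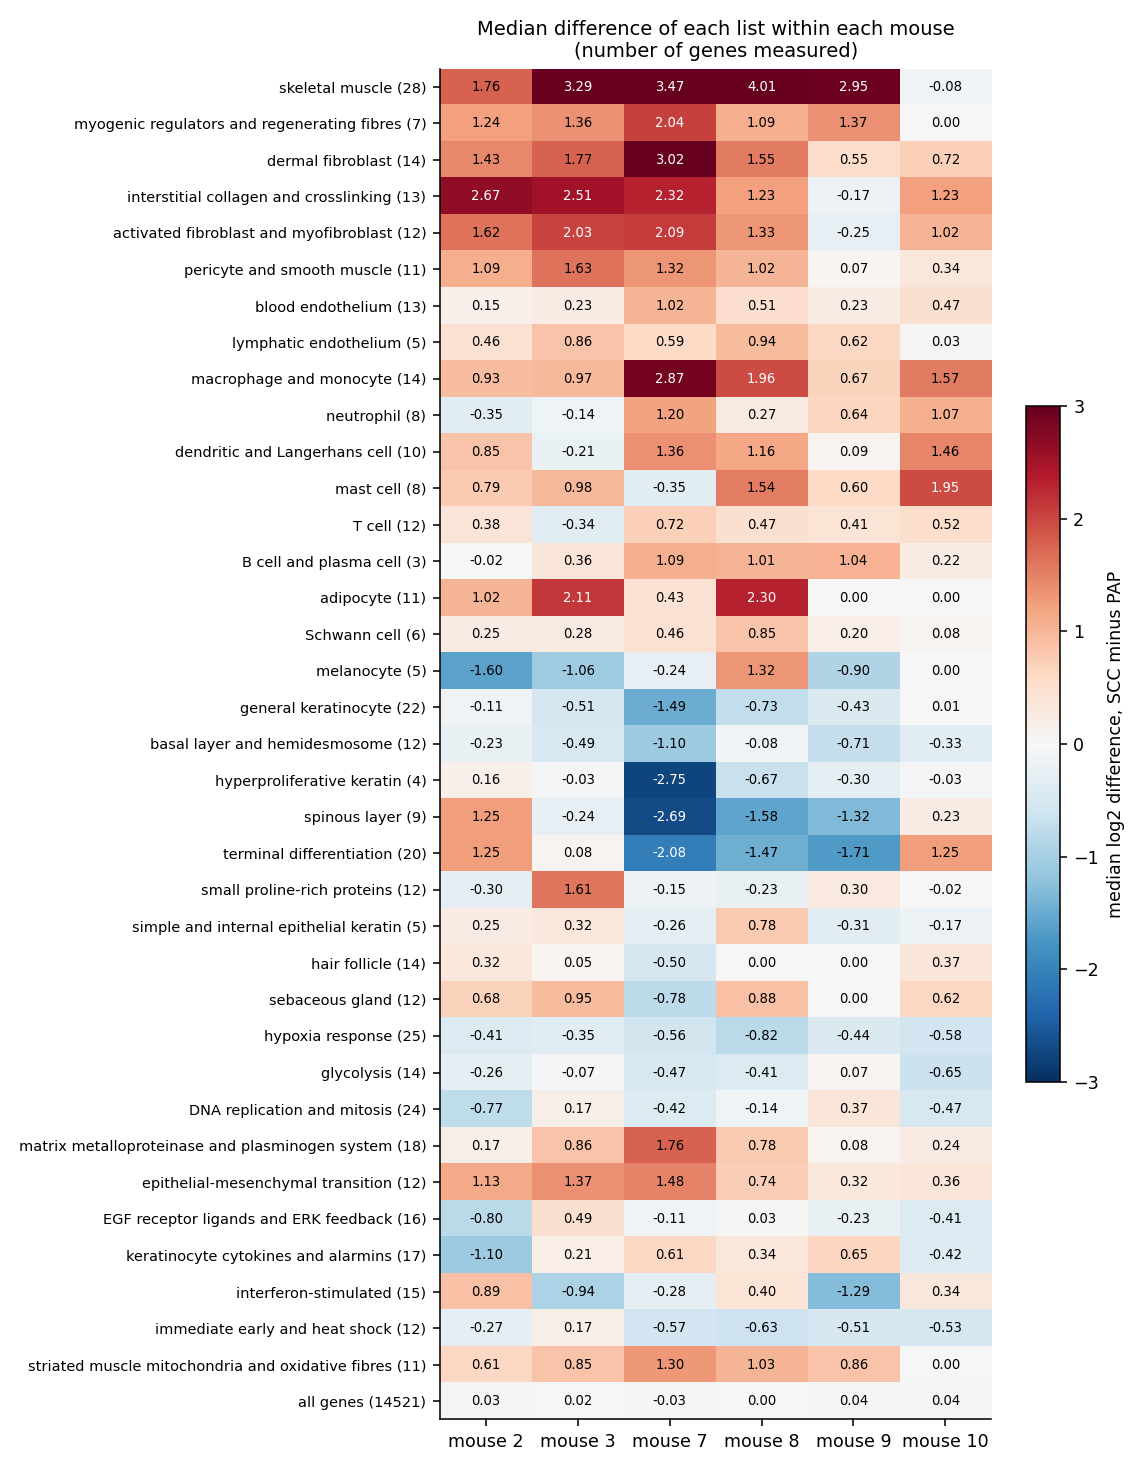
Median log2 difference, SCC minus PAP, of each gene list (rows, number of genes measured in brackets) within each mouse (columns), on a colour scale from -3 to 3. Muscle is at 1.76 to 4.01 in 5 mice and at -0.08 in mouse 10, hypoxia is below 0 in 6 of 6 mice, and terminal differentiation is at -2.08 in mouse 7 and above 0 in mice 2 and 10.

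The risen genes were then set against the muscle and stromal content of single lesions. Scores for muscle, fibroblast, macrophage and keratinocyte content were the mean log2 values of those lists, with a gene left out of its own score, and the correlation used the deviations of 12 libraries from the mean of their lesion type, which leaves the difference between PAP and SCC out. All libraries share these scores, so the values below are descriptions. Of 440 risen genes, 158 (35.9%) followed the muscle score at r of at least 0.8, against 2.69% of all genes, and 235 (53.4%) followed the fibroblast score, against 8.15%. Together 300 (68.2%) followed at least 1 of them, against 9.29% of all genes. The macrophage score was followed by 189 (43.0%), against 6.85%, and 77 (17.5%) followed none of the 3. The scores were themselves related, with r of 0.81 between muscle and fibroblast and 0.88 between fibroblast and macrophage.

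Of the 34 fallen genes, 0 followed the muscle, fibroblast or macrophage score at that level, and 0 followed the keratinocyte score, where the highest r was 0.69. Only positive r was counted as following. A gene that goes down as such content goes up could not enter these counts, and genes with strongly negative r were not counted. Over the 6 carcinomas alone 8 of the 34 (23.5%) followed the keratinocyte score, against 4.49% of all genes, with a highest r of 0.95, and over the 6 papillomas 1 did. Over the 12 libraries the median r of the 34 was -0.35 with the muscle score (highest 0.51) and -0.44 with the fibroblast score (highest 0.11). Pgf was at r = -0.72 with the fibroblast score and 0.06 with the keratinocyte score. Vegfa was at -0.52 and -0.08.

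The comparison within mouse 10, whose papilloma and carcinoma had muscle shares of 0.00273% and 0.00374%, gives the differences with little change in muscle. There 366 of 440 risen genes were higher in SCC, with a median difference of 0.53, against 1.91 in mouse 7. Of 34 fallen genes 32 were lower, with a median of -0.43. The median over all genes in mouse 10 was 0.04, and the share of all genes in either direction is not given here. Mouse 10 was part of the fit that called these genes, so this agreement is partly built in. Pdgfra differed by 1.51, C1qb by 1.95, Grem1 by 1.91, Pgf by -2.07 and Vegfa by -0.83 in that mouse, whereas Car3 differed by 0.06 and Tfap2a by -0.03. This is 1 pair and carries no test. With the muscle and fibroblast scores as covariates limma called 0 genes and 508 had an unadjusted p under 0.05. Because these scores differ between PAP and SCC themselves, the fit cannot tell content and lesion type apart.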

How the data were processed

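RNA-seq was analysed from 6 papillomas and 6 carcinomas, with 6 CHR libraries as reference. The authors aligned reads to mm10, counted them per gene with HTSeq and stabilised the variance of the counts with DESeq2. What was deposited is a score, that stabilised value back on a linear scale and rounded to whole numbers. It compresses low genes, so fold changes of weakly expressed genes are understated. Software versions, strandedness and the filter on low genes are not given in the sources used here, and reads of antisense or overlapping genes may be mixed. Inverting the transformation (zero level 39.12) gave whole reads for 98.19% of values, all of those under 100 included, and size factors of 0.8345 to 1.1776. Normalised reads are these counts divided by the size factor.

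Main differences were tested with limma (version 3.58.1, R 4.3.3) on log2 of the deposited score, with 18 libraries, mouse as a fixed block, a weight per group, a variance trend, and Benjamini-Hochberg adjustment over 14521 genes. Tests were two-sided, and ± is the SE on that scale. Entries without a symbol (21, at most 0.241% of the total) were left out. The mouse number denotes the same animal, as the labels and the mixed model of the study have it. The correlation of paired deviations was -0.24 to 0.39. With the mouse as a block, the p-values measure how differences between the tissues of a mouse vary from animal to animal. That spread was pooled over CHR, PAP and SCC, with CHR weighted most (1.988, against 0.7364 for PAP and 0.6829 for SCC). Each animal gave 1 lesion of each kind. Tested on simulated data for SCC vs PAP over 14521 genes, the fit recovered 73% of 2-fold and 90% of 4-fold changes. It had 2.4% false calls and made 0 calls without a change. Whether these rates hold for the libraries themselves, where many genes follow the muscle and fibroblast scores together, was not tested.

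Genes were named by a rule: the 12 largest rises and falls called in 6 of 6 mice, the 12 largest rises that neither belong to nor follow muscle, and up to 4 genes of lowest p from each of 36 lists. The text names a part of these (some are not reported here), and Tmem8c, Krt5, Krt14, Kdr, Ndrg1, Egln3, Hk2, Angptl4, Bnip3 and Ripk4 were named outside the rule after their values were seen. Of 477 list genes 453 were measured, and the rest are not analysed here. The rule, the lists and the comparison were chosen with earlier results of these data known, so the counts are not independent evidence. Symbols were matched to GENCODE M21 (99.5%). Numbers of reads cover counting error only. Alternatives changed the block, weights, libraries, tool, pseudocount, low-value filter, scaling and covariates.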

Additional observations from a re-analysis of the deposited data

Results flagged for a closer look

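Values were compared on a log scale within each group of 6 libraries. A value is listed here when its gap to the nearest other value is too large a part of the group's range. The limit is Dixon's critical value for that size. Of 150 sets of values examined 41 met this, and chance gives about 1 in 20 for a single set. The sets share libraries and hold genes that vary together, so they are not independent. The carcinoma of mouse 10 was the low library in 26 and the papilloma of mouse 2 the high one in 12, and the cause was not tested.

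In the carcinoma of mouse 10 the muscle genes had, in normalised reads, 26.4 for Acta1, 103 for Ryr1, 39.6 for Mylpf, 166 for Ttn, 145 for Neb, 1.64 for Car3, 3.635 for Tnnt3 and for Nrap, and 9.05 for Ankrd1. Cmya5 had 31.2, Flnc 55.4, Myh8 1.03 and Cox8b 0 normalised reads there. Fibroblast and matrix genes in the same library had 253 normalised reads for Pdgfra, 21.7 for Twist2, 106 for Lox, 2750 for Col5a2, 99.8 for Sulf1, 621 for Grem1, 436 for Spon1, 312 for Wisp1, 224 for Tagln and 249 for Prrx1. The shares of reads were 0.00374% for skeletal muscle, 2.69e-05% for regenerating fibres and 0.0281% for dermal fibroblast genes.

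The papilloma of mouse 2 was high for muscle genes, with 1848 normalised reads for Acta1, 329.5 for Mylpf, 20855 for Ttn, 573 for Car3, 611 for Tnnt3, 177 for Nrap, 32.04 for Ankrd1, 589 for Cmya5, 31.2 for Myh8 and 14.3 for Cox8b. Its shares were 0.2% for skeletal muscle and 0.000271% for regenerating fibres. Of the remaining values, Tns4 had 8237 normalised reads in the papilloma of mouse 9, the lowest of PAP. The papilloma of mouse 10 had the highest Bnip3, 547 normalised reads, and the lowest collagen share, 0.0716%.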

How the results depend on the processing

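The counts at an adjusted p under 0.05 in limma moved with the fit more than the directions did. With no replicate block, with PAP and SCC libraries only (with or without the replicate block), with limma-voom on recovered reads and with muscle or both scores as covariates, 0 genes were higher, 0 lower, 0 of the list genes were called (59 as reported) and 0 of the 24 named genes. Without group weights 1267 were higher and 161 lower, 834 were lower at the looser cutoff and 128 list genes were called. An unweighted fit without block on log2(value + 1), chosen after seeing the data, gave 708 and 79. Scaled to keratinocyte genes, 166 were higher and 0 lower (6065 and 33 at the looser cutoff), with 29 list genes and 10 named genes. Scaled without muscle, 17 were lower, and 312 at the looser cutoff. Leaving out 1 mouse gave 0 to 1007 higher, 0 to 153 lower, 0 to 112 list genes and 0 to 23 named genes, and 672 to 2298 higher and 79 to 932 lower at the looser cutoff. With the covariates 0 genes passed the looser cutoff, and Ttn (-0.71, or -0.69 with muscle alone) and Tnnt3 (-0.02 in both) reversed, among 20 of the 474 called genes that changed sign with both scores and 23 with muscle alone. Keratinocyte scaling turned 5, and the other alternatives 0. The 300 risen genes that followed muscle or fibroblast became 372 at r of 0.7, 339 over the carcinomas and 265 over the papillomas. The share of all genes rose too, from 9.29% to 14.6%, 13.7% and 17.4%. Single scores moved more: at r of 0.7 fibroblast went from 235 to 356, both from 93 to 204 and none of the 3 from 77 to 36, and over the carcinomas muscle went from 158 to 258. Among all genes the same shares went from 8.15% to 13.4%, 1.54% to 5.71%, 88.1% to 82.7% and 2.69% to 8.56%. Whether depth limits the calls was not tested.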
